A study of Arabidopsis thaliana with 12 samples.

Results

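The transcripts described here are those of 10 genes of *Arabidopsis thaliana* that act in cell division. They are the B1-type cyclins *CYCB1;1* (AT4G37490), *CYCB1;2* (AT5G06150), *CYCB1;3* (AT3G11520) and *CYCB1;4* (AT2G26760), the B-type cyclin-dependent kinases *CDKB1;1* (AT3G54180), *CDKB1;2* (AT2G38620), *CDKB2;1* (AT1G76540) and *CDKB2;2* (AT1G20930), the cytokinesis syntaxin *KNOLLE* (AT1G08560) and the D-type cyclin *CYCD3;1* (AT4G34160). The genes were picked by their AGI identifiers, with earlier results of these data known, and all 10 are among the 22318 genes of the first model fit and the 22400 genes of the second. The RNA libraries, 12 in all, were made from seedlings of the Columbia-0 ecotype at 5 days of age, with 2 biological replicates in each of 6 groups and about 12 whole seedlings in a library. WT and *det1-1* were grown in light (L, days of 16 h of light and 8 h of darkness at 100 µmol per square metre and second) or in constant darkness (D), while *ubp22-1* and *det1-1ubp22-1* were grown in light only, all of them on agar medium without sugar. *DET1* encodes a repressor of photomorphogenesis that works with CUL4 ubiquitin ligases, and *det1-1* is a partial loss-of-function allele. *UBP22* encodes a deubiquitinase of histone H2B, *ubp22-1* is a T-DNA insertion line, and the double mutant came from a cross.

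The first fit holds both light conditions of WT and *det1-1*, and the second holds the 4 light-grown genotypes. The deposited tables give a mean over the 8 libraries of a fit and the log2 fold changes with their standard errors, but no value per library. Each level below is therefore a group mean of 2 libraries recovered from those columns, and the spread between replicates enters only through the standard errors. The group means of all genes summed to between 24190350 and 32505172 normalized counts in the first fit. The transcript of *DET1* (AT4G10180) averaged 1241 normalized counts in light-grown WT, 909 in dark-grown WT, 1107 in light-grown *det1-1* and 1758 in dark-grown *det1-1*. In darkness it was 1.93-fold higher in the mutant (log2 fold change 0.95, standard error 0.17, adjusted p = 2.2e-07, Wald test). In light the log2 fold change was -0.17 (standard error 0.17, adjusted p = 0.64, Wald test). The transcript of *UBP22* (AT5G10790) averaged 414 normalized counts in light-grown WT, 436 in light-grown *det1-1*, 8345 in the libraries labelled *ubp22-1* and 4018 in those labelled *det1-1ubp22-1*. Its log2 fold change over WT was 4.33 (standard error 0.18, adjusted p = 5.3e-121, Wald test) in *ubp22-1*, higher and not lower. Counts over a gene that carries an insertion do not test whether the protein is lost, and the names of these groups below are those of the labels.

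Cyclins bind and activate cyclin-dependent kinases, and successive cyclin and kinase pairs drive a cell through DNA replication and division. B1-type cyclins accumulate from G2 into mitosis and are destroyed when the chromosomes separate. CDKB kinases exist only in the green lineage: transcripts of CDKB1 kinases accumulate from S phase into mitosis, and those of CDKB2 kinases at G2 and mitosis. *KNOLLE* encodes a syntaxin made in dividing cells, where it drives the fusion of vesicles into the cell plate. The D-type cyclin stands apart from the other 9 genes, since D-type cyclins act earlier, at the entry into the cell cycle, and *CYCD3;1* responds to cytokinin and sugar. In a seedling, division is confined mainly to the root and shoot meristems, the leaf primordia and the stomatal lineage. In etiolated seedlings, which elongate in darkness, the shoot meristem is held back until light arrives.

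Many G2 and M phase promoters of plants hold the MSA element, whose core AACGG is read by MYB3R transcription factors. Promoters of 9 of the 10 genes were taken from the RefSeq annotation of the TAIR10.1 build, from 250 bases before to 50 bases after the annotated gene start, and AACGG was searched on both strands. At least 1 copy was found in 7 of the 9, all but both CDKB1 kinases, and in 24.7% of all 27442 nuclear protein-coding promoters of that length. At least 2 copies were found in 5, the 4 B1 cyclins and *KNOLLE*, and in 4.89% of all promoters. The 4 E2F words searched on both strands (TTCCCGC or TTGGCGC or TTCGCGC or TTGCCGC) were in none of the 9 windows, against 3.63% of all promoters. The site II words (TGGGCC or TGGGCT, also on both strands) were in 3 windows, those of *CYCB1;1*, *CYCB1;2* and *CYCD3;1*, against 21.7%.

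The promoters of 5 genes are shown, each as the 250 bases just before the gene start, 5′ to 3′ in the direction of transcription. All 5 hold a word searched, so they do not represent the whole set. The same stretch of *CYCB1;4*, *CDKB1;1* and *CDKB1;2* held none, and these genes also fell in dark-grown *det1-1*, as given below. Whether the words go with the changes was not tested. Capitals mark AACGG and the site II words on either strand. In the first sequence a site II word and a copy of the core overlap.
*CYCB1;1* (chr4:17624309-17624558, minus strand): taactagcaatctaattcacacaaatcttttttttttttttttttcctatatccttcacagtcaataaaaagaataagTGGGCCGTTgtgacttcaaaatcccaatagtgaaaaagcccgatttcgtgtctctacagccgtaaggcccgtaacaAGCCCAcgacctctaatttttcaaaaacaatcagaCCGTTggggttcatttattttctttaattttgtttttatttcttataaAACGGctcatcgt
*CYCB1;2* (chr5:1861704-1861953, minus strand): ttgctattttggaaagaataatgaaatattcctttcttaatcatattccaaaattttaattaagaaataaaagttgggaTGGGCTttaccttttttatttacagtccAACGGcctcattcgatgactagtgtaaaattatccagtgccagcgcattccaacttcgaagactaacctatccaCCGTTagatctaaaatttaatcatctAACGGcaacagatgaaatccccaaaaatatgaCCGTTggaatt
*CYCB1;3* (chr3:3627274-3627523, minus strand): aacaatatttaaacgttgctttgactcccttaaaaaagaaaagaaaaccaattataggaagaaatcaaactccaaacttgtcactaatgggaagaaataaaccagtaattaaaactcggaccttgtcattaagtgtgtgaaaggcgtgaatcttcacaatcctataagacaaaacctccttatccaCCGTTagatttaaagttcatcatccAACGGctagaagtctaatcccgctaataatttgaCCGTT
*KNOLLE* (chr1:2711001-2711250, minus strand): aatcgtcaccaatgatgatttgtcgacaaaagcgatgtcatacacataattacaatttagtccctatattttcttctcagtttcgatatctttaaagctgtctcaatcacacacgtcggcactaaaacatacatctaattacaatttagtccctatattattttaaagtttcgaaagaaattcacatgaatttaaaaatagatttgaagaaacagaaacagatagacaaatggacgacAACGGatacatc
*CYCD3;1* (chr4:16357171-16357420, plus strand): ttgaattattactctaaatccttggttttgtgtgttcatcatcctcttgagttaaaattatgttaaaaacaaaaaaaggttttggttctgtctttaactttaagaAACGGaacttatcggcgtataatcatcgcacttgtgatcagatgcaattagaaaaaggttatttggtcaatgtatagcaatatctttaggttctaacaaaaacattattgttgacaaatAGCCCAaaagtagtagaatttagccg

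A match of letters describes the window and is not a bound site. Exact stretches of 50 bases within single exons, the length of a read, told the paralogs apart in all but a single case. Reads across exon junctions or with mismatches were not examined. The coding DNA of the CDKB1 kinases was 85.9% identical over 930 aligned bases and that of the CDKB2 kinases 86.6% identical over 942, while the 6 pairs of B1 cyclins ranged from 63.9% to 76%. No 50-base stretch of an exon occurred elsewhere in the genome for 9 of the 10 genes. In *CYCB1;2*, 184 of 1630 exon positions (11.3%) opened a 50-base stretch that also occurs in *CYCB1;5* (AT1G34460), and reads from there cannot be assigned. AT1G34460 averaged 12.4 normalized counts in light-grown WT, 79.8 in dark-grown WT, 3.46 in light-grown *det1-1* and 12.95 in dark-grown *det1-1*, under the level of its paralog in every group.

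How the 10 transcripts moved is given first by comparison and then gene by gene. A gene was called where the log2 fold change exceeded 1 in size and the p, adjusted by Benjamini-Hochberg over all genes, was under 0.01. Between light-grown and dark-grown WT, the 10 did not move as a block. The 4 genes called higher in light were *CYCB1;1*, *CYCB1;2*, *CDKB1;1* and *CYCD3;1*, where 20.9% of all genes were called higher. None was called lower, where 15.6% of all genes were. The median log2 fold change of light over darkness was 0.94 for the 10 and 0.02 for all genes. Libraries were made from whole seedlings, so fewer dividing cells and less transcript in each of them cannot be told apart, here and in every comparison below.

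In darkness, WT seedlings etiolate while *det1-1* seedlings develop as if in light, and there 7 of the 10 transcripts were lower in the mutant, by 2.44-fold to 7.86-fold. These were all but *CYCB1;1*, *CDKB2;2* and *CYCD3;1*. Of all genes, 10.6% were called lower and 14.4% higher, and 0 of the 10 were called higher. The median log2 fold change of the mutant over WT was -1.88 for the 10 and -0.0048 for all genes. Within *det1-1*, 9 of the 10 were higher in light than in darkness, by 2.20-fold to 8.06-fold, where 15.7% of all genes were called higher and 11.8% lower. The exception was the D-type cyclin. The median was 2.24 for the 10 and 0.05 for all genes.

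In light, no transcript of the set was called between *det1-1* and WT, either in the first fit, where 3.21% of all genes were called, or in the second, where 3.54% were. An unadjusted p under 0.05 was reached by 3 of the 10 in each fit, *CYCD3;1*, *CDKB1;2* and *CDKB2;1*. Of all genes, 5253 of 22318 reached it in the first fit and 6551 of 22400 in the second. Every gene of the set but *KNOLLE* had a negative log2 fold change in light, with a median of -0.33 in the first fit. The direct test of the difference, the log2 fold change of the mutant in darkness minus that in light, was called for 8 of the 10. It was negative for the 7 genes that were lower in the dark-grown mutant, where 6.75% of all genes were called lower, and positive for the D-type cyclin, where 8.91% were called higher.

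The light-grown *ubp22-1* seedlings gave no call among the 10, and few over all genes (0.116%). In *det1-1ubp22-1* all 10 log2 fold changes over WT were negative, with a median of -0.28, and a single gene, *CDKB1;2*, was called lower, where 0.848% of all genes were. The double mutant was not separable from *det1-1*: none of the 10 was called in that difference, where 0.0179% of all genes were. An unadjusted p under 0.05 was reached by none of the 10 and by 373 of all 22400 genes. The standard errors of this difference, 0.28 to 0.41, are overstated because both fold changes hold the WT libraries.

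These counts depended on how strictly the fold and the small number of libraries were treated. When the test asked whether the fold change exceeded 2, *CYCB1;1* alone of the 4 was called in WT, 5 of the 7 in the dark-grown mutant and 6 of the 9 within *det1-1*. Of the 8 differences between the effects of the mutation in darkness and light, that test called 2, those of *CYCB1;3* and *CYCB1;4*, and it called 0 in the double mutant. Over all genes it left 4156 of 8151 calls in WT, 2383 of 5577 in the dark-grown mutant and 2442 of 6135 within *det1-1*. It left 1133 of 3495 differences over all genes, and 67 of 507 calls in the double mutant. With a t distribution of 4 degrees of freedom, the residual number of a fit, in place of the normal distribution, 1 was called in WT (the D-type cyclin), 1 in the dark-grown mutant (*CYCB1;4*) and 0 in the remaining comparisons. Over all genes it left 3741 of 8151 calls in WT, 897 of 5577 in the dark-grown mutant and 0 in the remaining comparisons.

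**Figure D1:**
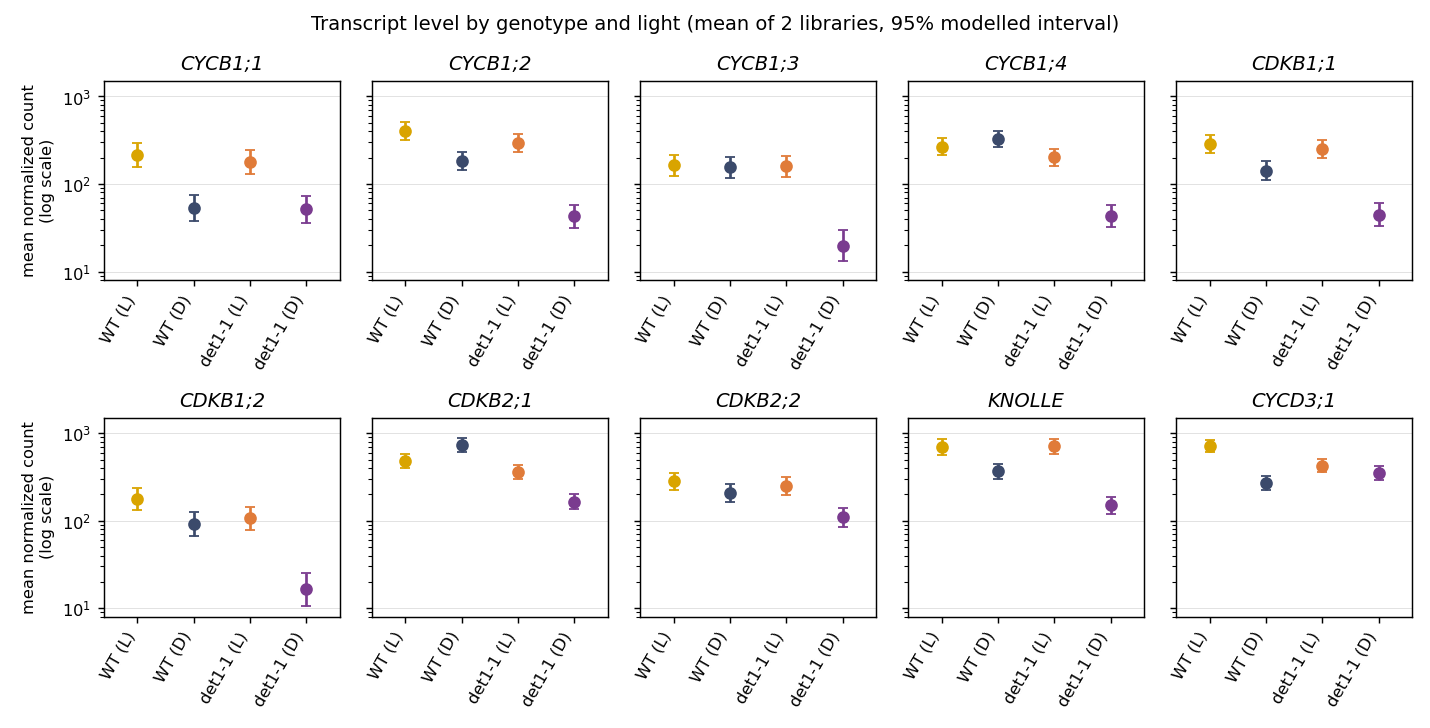
Mean normalized count of each gene (vertical log axis) in WT and *det1-1* in light (L) and darkness (D). Points are means of 2 libraries and bars are 95% intervals from the negative binomial model of the first fit. The dark-grown mutant is the lowest of the 4 groups for every gene but *CYCD3;1*, and for *CYCB1;1* it does not differ from dark-grown WT beyond the error.

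*CYCB1;1*, a B1 cyclin whose transcript is widely used as a marker of cells in G2 and mitosis, was higher in light in both genotypes. The gene lies on the minus strand of chromosome 4 from 17621886 to 17624308, with 8 exons. Its promoter, shown above, held the MSA core 168, 61 and 13 bases before the start and site II words 172 and 96 bases before. It averaged 215 normalized counts in light-grown WT and 179 in light-grown *det1-1*, and 53.3 and 51.3 in the same genotypes grown in darkness. The groups thus formed pairs by light, with a step of 1.75 on the log2 scale between the pairs. Light over darkness was 4.03-fold in WT (log2 fold change 2.01, standard error 0.34, adjusted p = 7.9e-09, Wald test) and 3.49-fold in the mutant (1.80, standard error 0.35, adjusted p = 1.1e-06, Wald test). In darkness the 95% interval of the log2 fold change of the mutant over WT ran from -0.76 to 0.65, which lies above the value of each of the other B1 cyclins. The difference between the effects in darkness and light was 0.21, with an interval from -0.74 to 1.16 (adjusted p = 0.82, Wald test). Among the 4 light-grown genotypes the second fit gave 226 normalized counts in WT, 187 in *det1-1*, 206 in *ubp22-1* and 178 in the double mutant, steps that were all within 2 standard errors.

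*CYCB1;2* lies on the minus strand of chromosome 5 from 1859279 to 1861703, with 4 exons in its longest transcript. It had the most copies of the MSA core in its window, 143, 69, 43 and 11 bases before the start and another just past it. The order of its groups ran from light-grown WT at 400 normalized counts through light-grown *det1-1* at 295 and dark-grown WT at 183 to dark-grown *det1-1* at 42.7. Only the step between the light-grown groups was within 2 standard errors. The gene was 2.19-fold higher in light in WT (log2 fold change 1.13, standard error 0.25, adjusted p = 1.3e-05, Wald test) and 6.91-fold higher in light in *det1-1* (2.79, standard error 0.29, adjusted p = 2.3e-20, Wald test). In darkness it was 4.28-fold lower in the mutant (log2 fold change -2.10, standard error 0.29, adjusted p = 7.4e-12, Wald test). The effect of the mutation was 1.66 lower on the log2 scale in darkness than in light, a log2 difference of -1.66 (standard error 0.38, adjusted p = 0.00013, Wald test). In the second fit it averaged 424 normalized counts in WT, 311 in *det1-1*, 392 in *ubp22-1* and 351 in *det1-1ubp22-1*, with no step over 2 standard errors.

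For *CYCB1;3* a single group stood apart. It lies on the minus strand of chromosome 3 from 3625286 to 3627273, and its window held the MSA core 64, 39 and 5 bases before the start. It averaged 163 normalized counts in light-grown WT, 155.5 in dark-grown WT and 160 in light-grown *det1-1*, against 19.8 in dark-grown *det1-1*. The first 3 groups lay together, with steps of 0.03 and 0.04 on the log2 scale, and the fourth was low. For light over darkness in WT the 95% interval of the log2 fold change ran from -0.49 to 0.62, which excludes a 2-fold difference either way, and in the mutant light was 8.06-fold higher (log2 fold change 3.01, standard error 0.37, adjusted p = 3.4e-15, Wald test). In darkness the mutant was 7.86-fold lower than WT (log2 fold change -2.97, standard error 0.37, adjusted p = 5e-15, Wald test), the largest fall of the 10. The difference between the effects of the mutation in darkness and light was -2.94 (standard error 0.46, adjusted p = 4.7e-09, Wald test). The light-grown genotypes of the second fit ranged only from 163 normalized counts in *det1-1ubp22-1* to 178 in *ubp22-1*.

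*CYCB1;4* lies on the plus strand of chromosome 2 from 11401118 to 11403433, with 5 exons, and both copies of the MSA core in its window come after the start. It averaged 329 normalized counts in dark-grown WT, 267 in light-grown WT, 203 in light-grown *det1-1* and 42.8 in dark-grown *det1-1*. Only the last of these steps exceeded 2 standard errors, so that here too a single group stood apart. In WT the 95% interval of the log2 fold change of light over darkness ran from -0.73 to 0.13. The mutant was 7.68-fold lower in darkness (log2 fold change -2.94, standard error 0.27, adjusted p = 1.6e-26, Wald test), and within the mutant light was 4.74-fold higher (2.25, standard error 0.27, adjusted p = 3.4e-15, Wald test). The effect of *det1-1* was lower in darkness than in light, by a log2 difference of -2.54 (standard error 0.35, adjusted p = 1.3e-11, Wald test). In the second fit the level was 278 normalized counts in WT and in *ubp22-1*, 210.0 in *det1-1* and 245 in the double mutant.

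**Figure D2:**
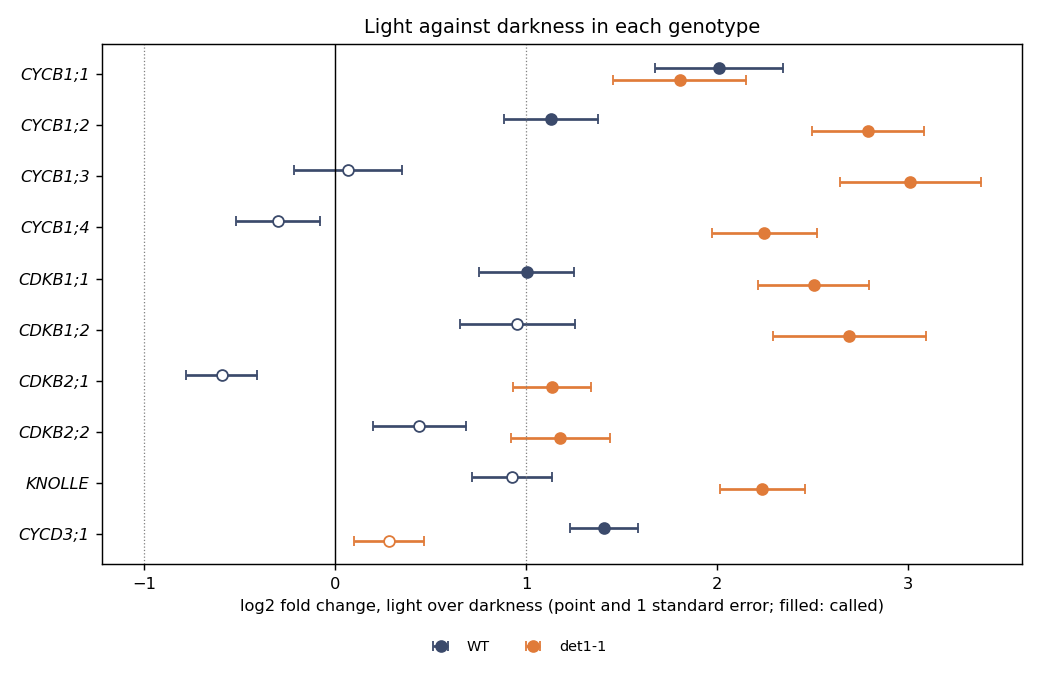
Log2 fold change of light over darkness for each gene in WT and in *det1-1* (points, with bars of 1 standard error, filled where called, and dotted lines mark a 2-fold difference). In *det1-1* 9 of the 10 genes lie right of the upper dotted line, from 1.14 to 3.01, while in WT the values run from -0.59 to 2.01.

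The CDKB kinases did not share a direction in WT. *CDKB1;1* lies on the plus strand of chromosome 3 from 20059671 to 20061488, with 4 exons, and 71 bases of it overlap AT3G54190 on the opposite strand. Its window held none of the words searched. It averaged 283 normalized counts in light-grown WT, 252.5 in light-grown *det1-1*, 141 in dark-grown WT and 44.5 in dark-grown *det1-1*, and only the light-grown groups were within 2 standard errors of each other. Light over darkness in WT was 2.01-fold (log2 fold change 1.00, standard error 0.25, adjusted p = 0.00013, Wald test), a value at the fold minimum, which was no longer called when the fold changes were recentred on the median gene (log2 fold change 0.99). In *det1-1* light was 5.68-fold higher (2.51, standard error 0.29, adjusted p = 5.9e-17, Wald test). In darkness the mutant was 3.17-fold lower (log2 fold change -1.67, standard error 0.29, adjusted p = 6.5e-08, Wald test), and the difference from the effect in light was -1.50 (standard error 0.38, adjusted p = 0.00061, Wald test). The second fit gave 297 normalized counts in WT, 263 in *det1-1*, 278 in *ubp22-1* and 227 in *det1-1ubp22-1*, with no step over 2 standard errors.

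*CDKB1;2*, its closest paralog, lies on the plus strand of chromosome 2 from 16152473 to 16154086, and 281 bases of it overlap AT2G38630 on the opposite strand. No word searched was in its window either. It averaged 178 normalized counts in light-grown WT, 106 in light-grown *det1-1*, 91.8 in dark-grown WT and 16.4 in dark-grown *det1-1*, where it was low. The overlapping gene stayed between 214 and 273 normalized counts in these groups. Light over darkness in WT was just under the fold minimum (log2 fold change 0.95, standard error 0.30, adjusted p = 0.0032, Wald test), and in *det1-1* it was 6.46-fold (2.69, standard error 0.40, adjusted p = 1.1e-10, Wald test). Dark-grown mutants were 5.59-fold lower than WT (log2 fold change -2.48, standard error 0.40, adjusted p = 2.7e-09, Wald test), with a difference of -1.74 from the effect in light (standard error 0.50, adjusted p = 0.0031, Wald test).

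This kinase was also the only member called among light-grown genotypes. The second fit gave it 192.5 normalized counts in WT, 208 in *ubp22-1*, 114 in *det1-1* and 90.8 in *det1-1ubp22-1*, so that both groups that carry *det1-1* were lower than both that do not. The double mutant was called lower than WT (log2 fold change -1.08, standard error 0.27, adjusted p = 0.0013, Wald test), while *det1-1* was not (-0.75, standard error 0.27, adjusted p = 0.034, Wald test). The difference between these mutants was -0.33, with a 95% interval from -1.08 to 0.42.

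*CDKB2;1* ran the other way in WT. It lies on the minus strand of chromosome 1, with 8 exons. It averaged 733 normalized counts in dark-grown WT, 485 in light-grown WT, 363 in light-grown *det1-1* and 165 in dark-grown *det1-1*, and every step in that order exceeded 2 standard errors. The dark condition thus held both its highest and its lowest level. In WT it was the only member with a higher level in darkness and an adjusted p under 0.01 (log2 fold change of light over darkness -0.59, standard error 0.19, adjusted p = 0.0028, Wald test), under the fold minimum. In *det1-1* it was 2.20-fold higher in light (1.14, standard error 0.20, adjusted p = 1.4e-07, Wald test). In darkness the mutant was 4.43-fold lower than WT (log2 fold change -2.15, standard error 0.20, adjusted p = 8.6e-26, Wald test), and the effect differed from that in light by -1.73 (standard error 0.28, adjusted p = 6.9e-09, Wald test). AT1G76530, which overlaps it by 44 bases on the opposite strand, averaged 99.6 normalized counts in light-grown WT and 2.71 in dark-grown WT. In *det1-1* that gene averaged 78.2 in light and 59.95 in darkness, and it was called higher in the dark-grown mutant (log2 fold change 4.47, standard error 0.70, adjusted p = 1.2e-09, Wald test). The part of AT1G76530 in the values of *CDKB2;1* was not tested.

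*CDKB2;2* was the only kinase of the 4 without a call between the genotypes in darkness. It lies on the minus strand of chromosome 1 from 7292389 to 7294746, and 192 bases of it overlap AT1G20925 on the opposite strand. *CDKB2;2* has 8 exons and 1 copy of the MSA core 89 bases before its start. It averaged 280.5 normalized counts in light-grown WT, 248 in light-grown *det1-1*, 207 in dark-grown WT and 109 in dark-grown *det1-1*, and only the last step exceeded 2 standard errors. The 95% interval of light over darkness in WT ran from -0.04 to 0.92 on the log2 scale. In *det1-1* it was called, at 2.26-fold (log2 fold change 1.18, standard error 0.26, adjusted p = 2.2e-05, Wald test). In darkness the mutant passed the p but not the fold minimum (log2 fold change -0.92, standard error 0.26, adjusted p = 0.0012, Wald test). The difference from the effect in light was -0.74, with an interval from -1.44 to -0.04 (adjusted p = 0.12, Wald test). In light the second fit gave both CDKB2 kinases their highest level in *ubp22-1*, at 521 and 302 normalized counts, and their lowest in *det1-1*, at 376 and 263, and none of the steps exceeded 2 standard errors.

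*KNOLLE* lies on the minus strand of chromosome 1 from 2709525 to 2711000, with 2 exons, and its window held the MSA core 12 bases before and again 13 and 37 bases after the start. It averaged 696 normalized counts in light-grown WT, 706.5 in light-grown *det1-1*, 366 in dark-grown WT and 149.95 in dark-grown *det1-1*. The light-grown groups were at the top together, and both steps below them exceeded 2 standard errors. In WT, light over darkness was 1.90-fold and passed the p but not the fold minimum (log2 fold change 0.93, standard error 0.21, adjusted p = 2.5e-05, Wald test), and in *det1-1* it was 4.71-fold (2.24, standard error 0.22, adjusted p = 2.1e-22, Wald test). In darkness the mutant was 2.44-fold lower (log2 fold change -1.29, standard error 0.22, adjusted p = 5.6e-08, Wald test), the smallest of the 7 falls, and the effect differed from that in light by -1.31 (standard error 0.31, adjusted p = 0.00016, Wald test). In light the mutant over WT had a 95% interval from -0.39 to 0.43 on the log2 scale, and the 4 genotypes of the second fit ranged from 699 normalized counts in *det1-1ubp22-1* to 829 in *ubp22-1*.

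The gene that overlaps *KNOLLE* on the opposite strand, by 464 bases, is *NPQ1* (AT1G08550), which encodes the violaxanthin de-epoxidase of photoprotection. It averaged 1777 normalized counts in light-grown WT, 784 in dark-grown WT, 2998 in light-grown *det1-1* and 6732 in dark-grown *det1-1*, highest in the group in which *KNOLLE* was lowest. The kit kept strand and the counting command that the study gives names no strand option, so the default of the tool applied, and the tables do not show how reads of the overlap were assigned. The part of *NPQ1* in the values of *KNOLLE* was not tested.

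*CYCD3;1* was the only member with a called difference above 0 between the effects of the mutation in darkness and in light. It lies on the plus strand of chromosome 4 from 16357421 to 16359565, with 4 exons, a single MSA core 145 bases before its start and a site II word 26 bases before. AT4G34150 overlaps it by 40 bases on the same strand. That gene averaged 2121 normalized counts in light-grown WT, 872.5 in dark-grown WT, 1802 in light-grown *det1-1* and 1678 in dark-grown *det1-1*. The part of AT4G34150 in the values of *CYCD3;1* was not tested. *CYCD3;1* averaged 712 normalized counts in light-grown WT, 427 in light-grown *det1-1*, 351 in dark-grown *det1-1* and 268 in dark-grown WT. The *det1-1* groups lay between the WT groups and within 2 standard errors of each other. In WT it was 2.66-fold higher in light (log2 fold change 1.41, standard error 0.18, adjusted p = 1.6e-14, Wald test), and in *det1-1* the 95% interval of light over darkness ran from -0.08 to 0.64. For the mutant over WT in darkness the interval ran from 0.03 to 0.75 (adjusted p = 0.064, Wald test). In light the mutant was under WT without reaching the fold minimum (log2 fold change -0.74, standard error 0.18, adjusted p = 0.00071, Wald test), and in the second fit, with the same 4 libraries, the adjusted p was 0.012 at nearly the same value (-0.75, standard error 0.23, Wald test). The difference between the effects in darkness and light was called, at 1.13 (standard error 0.26, adjusted p = 9.1e-05, Wald test), while neither effect was called by itself.

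Among light-grown genotypes this cyclin averaged 767 normalized counts in WT, 822 in *ubp22-1*, 457 in *det1-1* and 456 in *det1-1ubp22-1*, the double mutant having an adjusted p of 0.015 (log2 fold change -0.75, standard error 0.23, Wald test). As for *CDKB1;2*, the step between WT and *det1-1* was the only step between neighbours in the order of the 4 genotypes that exceeded 2 standard errors, and for the other 8 genes no step did. In *ubp22-1* the log2 fold changes of the 10 ran from -0.14 to 0.17, with standard errors from 0.20 to 0.29. Every 95% interval lay within 1 on the log2 scale of no change. An unadjusted p under 0.05 was reached there by 0 of the 10 and by 783 of all 22400 genes. The difference between the double mutant and *det1-1* ran from -0.33 to 0.22 over the 10.

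**Figure D3:**
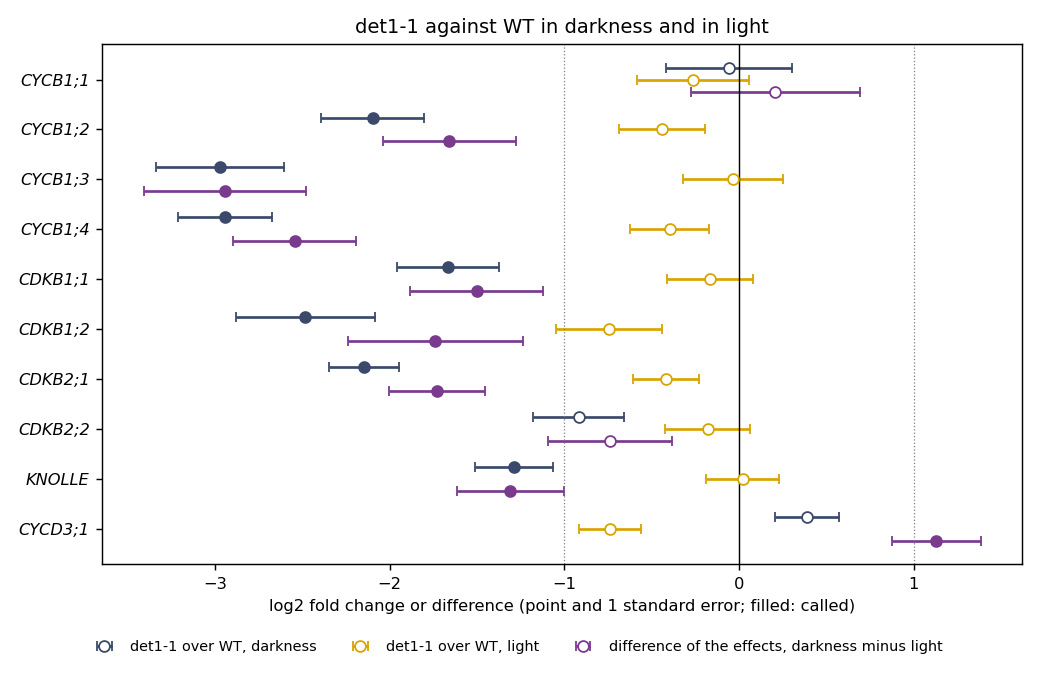
Log2 fold change of *det1-1* over WT in darkness and in light, and the difference between them (darkness minus light), with bars of 1 standard error and points filled where called. In darkness 7 genes lie below -1, in light none does, and the difference is positive for *CYCD3;1* at 1.13 and for *CYCB1;1* at 0.21 only.

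Per kilobase of the longest annotated transcript, *KNOLLE* had the highest level of the 10 in light-grown WT, at 502 normalized counts per kb. It was followed by *CYCD3;1* at 380 per kb and *CDKB2;1* at 355 per kb, and the lowest was *CYCB1;3* at 98.5 per kb. In dark-grown WT the highest was *CDKB2;1*, at 536 per kb, and the lowest *CYCB1;1*, at 32.7 per kb. In dark-grown *det1-1* the D-type cyclin was highest, at 187.5 per kb, and *CDKB1;2* lowest, at 11.4 per kb. The 10 genes together took 0.0137% of the normalized counts in light-grown WT, 0.0104% in dark-grown WT, 0.0095% in light-grown *det1-1* and 0.0031% in dark-grown *det1-1*.

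**Figure D4:**
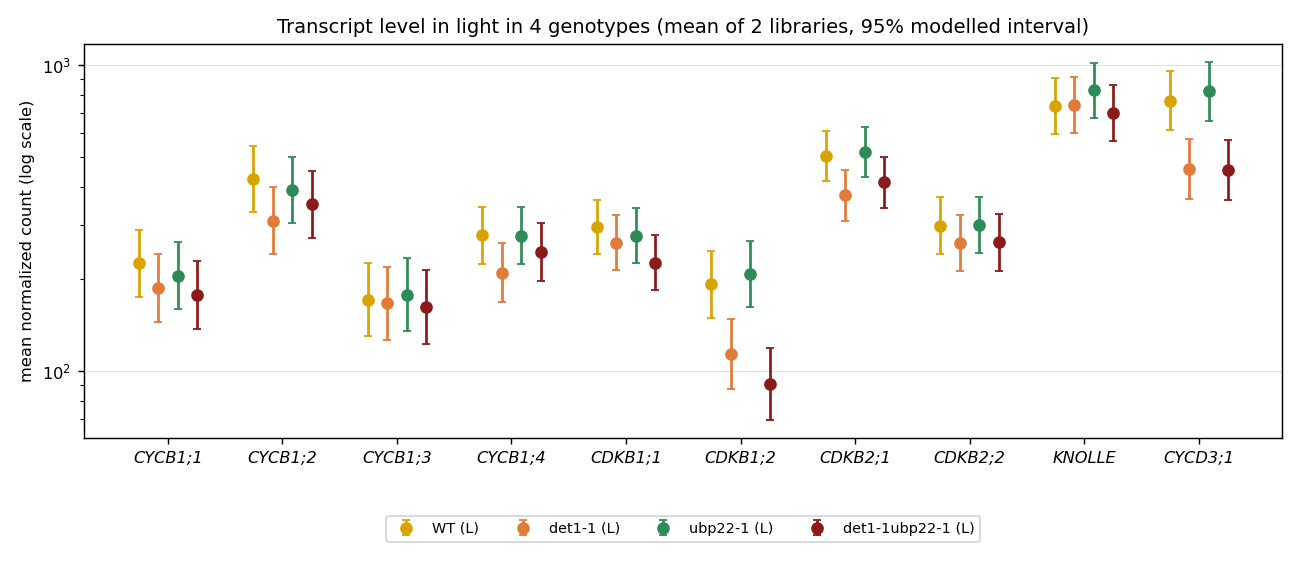
Mean normalized count (vertical log axis) of each gene in the 4 genotypes grown in light, where points are means of 2 libraries and bars are 95% intervals from the model of the second fit. *CDKB1;2* and *CYCD3;1* are lower in the groups that carry *det1-1*, at 59.3% and 59.6% of WT in *det1-1*, while the intervals of the other genes overlap in all 4 genotypes.

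Other genes of the cell cycle were described by lists from textbook knowledge, by counts of calls and medians beside those of all genes given above. Of the 14 other A- and B-type cyclins measured, 5 were called higher and 1 lower in light in WT, while in darkness 8 were called lower and 0 higher in *det1-1*, with a median log2 fold change of -1.53. *CYCB2;2*, a B2-type cyclin of mitosis, fell by 2.56 on the log2 scale in the dark-grown mutant (standard error 0.36, adjusted p = 9.5e-12, Wald test). *CYCA3;1*, an A-type cyclin, fell by 2.29 there (standard error 0.58, adjusted p = 0.00027, Wald test), to a low 6.19 normalized counts. *CYCA3;2*, the most abundant cyclin of this list without a call, had a log2 fold change of -0.97 there and of 0.07 for light over darkness in WT. *CYCA3;1* and *CYCA2;4*, also A-type, were higher in light in WT, at log2 fold changes of 1.91 and 1.79. The difference between the effects of the mutation in darkness and light was called above 0 for *CYCA2;4*, as for *CYCD3;1*, at 1.31 (adjusted p = 0.0013, Wald test). For *CYCA3;1* it was -1.91 (adjusted p = 0.024, Wald test). Of the 14, 1 was called higher and 4 lower in that difference. Of the 9 other D-type cyclins, 4 were called higher and 1 lower in light in WT, and in darkness 2 were called lower and 0 higher in the mutant, with a median of 0.18. *CYCD1;1* was lower in light in WT (log2 fold change -2.31, standard error 0.17, adjusted p = 6e-43, Wald test) and lower in the dark-grown mutant (-1.24, standard error 0.16, adjusted p = 2.8e-13, Wald test). *CYCD3;2*, a paralog of the D-type cyclin described above, had a log2 fold change of 0.93 in darkness and of 0.39 for light over darkness in WT, both under the fold minimum. *CYCD3;3*, another CYCD3 cyclin named after its values were seen, was called higher in light in WT, at 1.47. In darkness it had a log2 fold change of 0.88 in the mutant, under the fold minimum. *CYCD6;1*, a D-type cyclin of formative root divisions, was higher in light in WT, at 1.69.

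Of the 21 genes of the spindle, chromosomes and cytokinesis, 13 were called lower and 0 higher in *det1-1* in darkness, with a median of -1.58, and 10 were called higher and 1 lower in light in WT. *HINKEL*, a kinesin of the phragmoplast, averaged 520 normalized counts in light-grown WT, 119 in dark-grown WT, 429 in light-grown *det1-1* and 22.4 in dark-grown *det1-1*. *TOPII*, a DNA topoisomerase, was next to it in the rise in light in WT, at a log2 fold change of 1.92. *DRP1A*, a dynamin-related protein and the most abundant gene of the list, had log2 fold changes of -0.38 for light over darkness in WT and -0.06 for the mutant in darkness. *MAD2*, a spindle checkpoint protein, averaged 446 in dark-grown WT, 256 in light-grown WT, 241 in light-grown *det1-1* and 78.2 in dark-grown *det1-1*, with the same order of groups as *CDKB2;1*. *NPSN11*, which pairs with *KNOLLE* in the SNARE complex of the cell plate, averaged 654 and 659 in WT in light and darkness, 515 in light-grown *det1-1* and 139 in dark-grown *det1-1*, where a single group was low. *KEULE*, the regulator that binds *KNOLLE*, was lower in light in WT, at 1456 against 3404 in darkness, and had a log2 fold change of -0.29 in the dark-grown mutant (adjusted p = 0.12, Wald test). *NPSN11* and *KEULE* were chosen after their values were seen.

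Of the 16 DNA replication genes, 15 were called higher and 0 lower in light in WT, with a median of 1.81, beside the median of 0.94 of the 10 genes. In darkness 10 were called lower and 0 higher in *det1-1*, with a median of -1.32. *PCNA1*, the sliding clamp of DNA polymerase, averaged 572 normalized counts in light-grown WT, 96.0 in dark-grown WT, 438 in light-grown *det1-1* and 24.9 in dark-grown *det1-1*. The helicase subunit *MCM6* fell in the dark-grown mutant by 2.04 on the log2 scale, and *PCNA1* fell by 1.95. In light in WT the helicase subunit *MCM3* had a log2 fold change of 2.27, next to *PCNA1* at 2.58, and *ORC1A*, of the origin recognition complex, was the gene without a call, at 1.22 (adjusted p = 0.06, Wald test). *TSO2*, a small subunit of ribonucleotide reductase, gave no call in darkness (log2 fold change 0.27, standard error 0.27, adjusted p = 0.43, Wald test).

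Of the 14 MYB3R, E2F and RBR regulators, 2 were called lower in *det1-1* in darkness and 0 higher, where 10.6% of all genes were called lower and 14.4% higher. These were *DEL1*, an atypical E2F, at -1.53, and *MYB3R4*, an activator that reads the MSA element, at -1.31 (standard error 0.30, adjusted p = 4e-05, Wald test). *MYB3R4* averaged 343 normalized counts in light-grown WT, 140 in dark-grown WT, 329 in light-grown *det1-1* and 56.6 in dark-grown *det1-1*. *RBR1*, the retinoblastoma-related protein, had a log2 fold change of -0.62 in darkness, under the fold minimum, and of 0.24 for light over darkness in WT, where *DEL1* at 1.85 and the activator *E2FA* at 1.34 were called higher in light. Of the 13 CDK inhibitors, 3 were called lower (among them *WEE1* at -2.29 and *KRP2* at -2.02) and 1 higher, and of the 12 APC/C activators, inhibitors and subunits, 5 were called lower and 1 higher. *WEE1* averaged only 8.57 normalized counts in dark-grown *det1-1*. *KRP4*, the most abundant inhibitor without a call, had a log2 fold change of 0.81 in darkness and of -0.32 for light over darkness in WT, where *KRP3* was higher in light, at 2.11, and *SIM*, an inhibitor of trichome cells, lower, at -1.84. *UVI4*, an inhibitor of the APC/C, fell by 3.06 on the log2 scale (standard error 0.68), to a low 3.95 normalized counts in dark-grown *det1-1*. In WT it was higher in light, at 1.60, as was the APC/C activator *CDC20.1*, at 1.35. *UBC19*, a ubiquitin-conjugating enzyme and the most abundant of these genes, had log2 fold changes of -0.64 for light over darkness in WT and 0.13 for the mutant in darkness. *APC10*, a subunit of that ubiquitin ligase, which destroys B-type cyclins, averaged 164 normalized counts in dark-grown WT and 1097 in dark-grown *det1-1* (log2 fold change 2.74, standard error 0.17, adjusted p = 4.7e-54, Wald test). Of the 7 other kinases and CKS subunits, 2 were called lower, *CKS2* at -1.77 and *CDKD;3* at -1.03. *CDKA;1*, the main kinase partner of D-type cyclins, had a log2 fold change of 0.50 in darkness and of -0.73 for light over darkness in WT, both under the fold minimum.

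**Figure D5:**
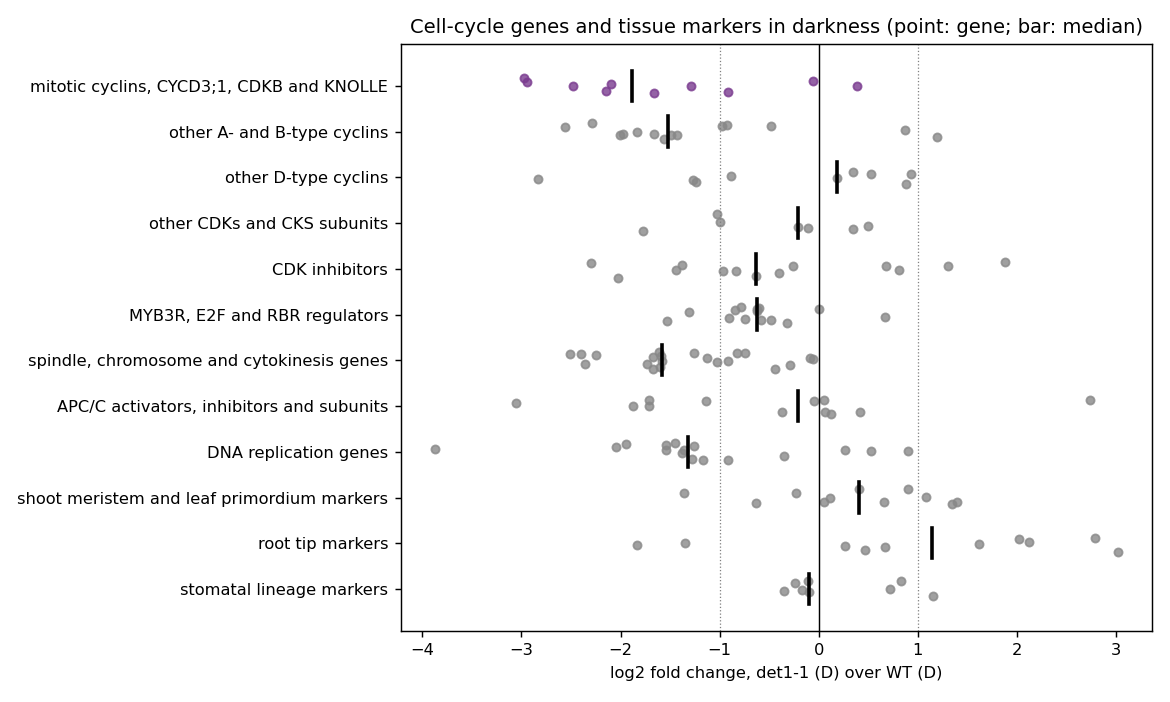
Log2 fold change of dark-grown *det1-1* over dark-grown WT for each gene (point) of the 10 described and of 11 other lists. Black bars are medians and dotted lines mark a 2-fold difference. The medians are -1.88 for the 10 genes, -1.58 for spindle, chromosome and cytokinesis genes and -1.53 for other A- and B-type cyclins, while those of the shoot and root tip markers are 0.41 and 1.14.

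Markers of the tissues that divide were measured beside these genes, since their share in a seedling can move with growth in darkness. Of the 11 shoot meristem and leaf primordium markers listed in the first fit, 3 were called higher and 1 lower in *det1-1* in darkness, and their normalized counts summed to 3452 in light-grown WT, 3877 in dark-grown WT, 3871 in light-grown *det1-1* and 4989 in dark-grown *det1-1*. Of the defining meristem markers, *CLV3* was between 3.96 and 6.25 in the 4 groups, *WUS* was not among the genes of the first fit, and *STM* averaged 50.3 in light-grown WT, 251 in dark-grown WT, 116 in light-grown *det1-1* and 161 in dark-grown *det1-1*. Of the 10 root tip markers, 3 were called higher and 2 lower in *det1-1* in darkness, and their sum ran from 2853 in dark-grown *det1-1* to 4344 in dark-grown WT. The root markers did not move together. Those called higher in the dark-grown mutant were *PLT2* (log2 fold change 3.02), *PLT1* (2.12) and *BRN1* (1.62), and those called lower were *SHR* (-1.35) and *JKD* (-1.83). *WOX5* averaged 4.80 in dark-grown WT and 19.5 in dark-grown *det1-1* without a call (adjusted p = 0.021, Wald test), and *SCR*, the most abundant, had a log2 fold change of 0.27. The shoot markers were mixed as well: *AN3* (1.39), *FIL* (1.34) and *GRF5* (1.08) were higher in the dark-grown mutant, *KNAT1* (-1.36) was lower, and *AIL6* was under the fold minimum (0.90). Of the 8 stomatal lineage markers, 6 were called higher and 0 lower in light in WT. In darkness 1 was called higher (*FAMA*, 1.16) and 0 lower in the mutant, where 14.4% of all genes were called higher and 10.6% lower. In light in WT, *POLAR* (2.66) and *SPCH* (2.41) had the largest log2 fold changes of those with 50 normalized counts or more, and *TMM*, the most abundant, gave no call in either comparison (0.38 in light in WT and -0.09 in the dark-grown mutant).

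The normalized counts of the 10 genes summed to 3681 in light-grown WT, 2527 in dark-grown WT, 2940 in light-grown *det1-1* and 994 in dark-grown *det1-1*. Relative to light-grown WT, the dark-grown mutant thus stood at 27.0% for the 10 genes, 92.6% for the root tip markers, 144.5% for the shoot markers and 54.3% for the stomatal markers. The stomatal markers stood lower still in dark-grown WT, at 44.3%, where the 10 genes stood at 68.7%. In dark-grown WT the root tip markers stood at 141% and the shoot markers at 112.3%, so the root tip sum was also lower in the dark-grown mutant than there. A few abundant genes carried the marker sums: *SCR* gave 1692 of the 3080 root tip counts in light-grown WT, and *FIL* and *AN3* gave 1997 and 1222 of the 4989 shoot counts in dark-grown *det1-1*. *JKD* gave 1914 of the 4344 root tip counts in dark-grown WT and 537 of the 2853 in dark-grown *det1-1*. The part of tissue shares in the values of the 10 genes was not tested.

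The genes whose pattern over the 6 groups was nearest to the median of the 10 were found among 17154 others that averaged 50 normalized counts or more in both fits, by the root mean square difference of log2 levels relative to light-grown WT. The nearest was *GHR1* (AT4G20940), which encodes a receptor-like kinase, at 0.07, followed by AT4G27595 at 0.10 and *CRLK1* (AT5G54590) at 0.11. The 10 nearest ended at 0.12 and included AT5G63550, AT5G33300, AT3G27360, *MIPS1* (AT4G39800), AT5G05240, *mMDH2* (AT3G15020) and *NEK5* (AT3G20860). Of the 10 described genes, *CDKB1;1* was nearest to their own median, at 0.15, and *CDKB2;1* was farthest, at 0.79, next to the D-type cyclin at 0.72.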

How the data were processed

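Polyadenylated RNA of the 12 libraries was sequenced as single 50-base reads, mapped with STAR to TAIR10 and counted per gene with HTSeq by the authors. The submitters' processing notes also name CASAVA 1.8. The deposited files are 7 tables of DESeq2 comparisons. Their signal, the mean normalized count, is the authors' average over the 8 libraries of a fit, after each library's counts were scaled by its size factor. The authors' deposited log2 fold changes, with a standard error each, were taken from the same fits and were used because no other column carries a difference between groups. The tables also hold the authors' Wald statistics, p-values and adjusted p-values, which were not used. The total over all genes, 1 entry in each table, was left out. Depth per library is unknown.

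Two-sided Wald p-values were computed from each fold change and standard error, adjusted by Benjamini-Hochberg over all genes, and called at a log2 fold change above 1 in size and an adjusted p under 0.01. Light and dark comparisons were turned to light over darkness. Group means and a negative binomial dispersion per gene were derived from the tables and gave the 95% intervals. The interaction variance is the sum of those of the light-dark comparisons. The calculations were tested on simulated data. With 2 libraries per group, the p-values rest on the normal approximation and on a spread shared over each fit.

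The 10 genes and the lists were chosen with earlier results of these data known. Named genes are the 10 members, *DET1* and *UBP22*, the 10 genes of nearest pattern and a choice from each list. From each list the choice was the 2 called genes with the largest change among those averaging 50 normalized counts or more, and the most abundant gene not called. It was made between light-grown and dark-grown WT and between both genotypes in darkness. Overlapping genes, defining markers and *CYCD3;3* were added. From the lists, 2 identifiers with another symbol in the reference were left out. Sequences and positions are those of RefSeq on TAIR10.1, whose annotation may differ from that used for counting; all 10 genes were matched by AGI identifier, and the promoter of *CDKB2;1* is not reported here. Python 3.11.15, pandas 2.3.3, NumPy 2.4.6, SciPy 1.17.1, Biopython 1.88 and matplotlib 3.10.9 were used.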

Additional observations from a re-analysis of the deposited data

Results flagged for a closer look

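For 8 of the 10 genes the effect of *det1-1* on the transcript differed between darkness and light, by the test of that difference (log2 fold change in darkness minus that in light, Wald test, adjusted over all genes). The difference was -2.94 for *CYCB1;3*, -2.54 for *CYCB1;4*, -1.74 for *CDKB1;2*, -1.73 for *CDKB2;1*, -1.66 for *CYCB1;2*, -1.50 for *CDKB1;1* and -1.31 for *KNOLLE*. It was 1.13 for *CYCD3;1*. Of all genes, 6.75% were called lower and 8.91% higher in that difference. Of the 8 calls, 2 were left by the test for more than a 2-fold change. A t distribution with 4 degrees of freedom left 0 of the 8, and 0 over all genes. For *CYCD3;1* neither of the separate effects was called, since that in light was under 2-fold and that in darkness did not pass its test.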

How the results depend on the processing

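No paired analysis was possible because the tables hold no value per library, and for the same reason no library could be left out. Without a fold minimum, 7 of the 10 genes were called for light over darkness in WT in place of 4, and 1 in place of 0 in light-grown *det1-1* against WT of the first fit. Over all 22318 genes, the same setting called 11826 for light over darkness in WT in place of 8151. Of the 7, *CDKB2;1* was lower in light, at a log2 fold change of -0.59, and the others were higher. Testing whether the fold change exceeds 2 called 1 of the 4 for light over darkness in WT, 2 of the 8 interactions and 0 of the 1 in *det1-1ubp22-1* against WT. A t distribution with 4 degrees of freedom, the residual number of a fit, called 1 for light over darkness in WT, 1 in place of 7 for the mutation in darkness, and 0 for light over darkness in *det1-1*, in the interaction and in *det1-1ubp22-1* against WT. Over all genes it called fewer in every comparison (3741 of 8151, 897 of 5577, and 0 of 6135, 717, 3495, 794, 26, 507 and 4 calls over all genes in the 9 comparisons, ordered as light over darkness in WT, the mutation in darkness, light over darkness in *det1-1*, the mutation in light in the first fit, the interaction, the mutation in light in the second fit, *ubp22-1* and *det1-1ubp22-1* against WT, and the double mutant against *det1-1*). Over all genes, testing for more than a 2-fold change left 4156, 2383, 2442, 89, 1133, 105, 3, 67 and 1 calls in the same order, and dropping the fold minimum gave 8934 in place of 5577, 9839 in place of 6135, 1694 in place of 717, 2586 in place of 794 and 1678 in place of 507. With the error of a negative binomial model, 16 genes in place of 4 differed between *det1-1ubp22-1* and *det1-1*, none of them among the 10. Recentring on the median gene ended the call of *CDKB1;1* in WT. An adjusted p under 0.05, a minimum mean normalized count of 10 and recentring moved no count of calls among the 10 by over 1.5 times. Precision is limited by 2 libraries per group and, for *CDKB1;2* and *CYCB1;3* in dark-grown *det1-1*, by mean normalized counts of 16.4 and 19.8.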
